A study of Mus musculus with 18 samples.

Results

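Cell cycle and mitosis genes were followed in the retinal pigment epithelium (RPE) of mice labelled *rd1* at P40. The set held 43 genes, listed by name from their known roles with earlier results of these data in view, out of 47729 genes in the count table. It took in the G1 cyclins and kinases, the genes of origin licensing and the replication fork, those of nucleotide supply, the cyclins, kinases and chromatin proteins of S, G2 and M phase, the spindle, checkpoint and cytokinesis genes, and 3 inhibitors of cyclin-dependent kinases (CDKs). A further 119 cell cycle genes were read beside them. The question was whether there was a sign of dividing cells in the treated eyecup.

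The *rd1* strain has a loss-of-function allele of *Pde6b*, and its rods die within the first weeks of life. The labels give all 9 mice as *rd1* at P40. The methods of the study, however, describe fewer *rd1* pairs at this age and, besides them, pairs of wild-type CD1 mice of the same age, which are the more numerous. Added up, the pairs of both strains are as many as the mice labelled *rd1* here. Whether some, or even most, of the 9 mice are wild type is therefore not known; the labels were followed, no mouse was reassigned, and genotype could not be a term in any test. In each of 9 mice, 1 eye had received adeno-associated virus (AAV) Best1-Nrf2, which carries the human *NFE2L2* cDNA under a human RPE promoter, together with AAV Best1-GFP. AAV Best1-GFP was given without it to the fellow eye. These eyes are called Best1-Nrf2 and control, with 9 libraries of amplified poly(A) RNA each. RNA was taken from the eyecup after removal of the retina, so that cells other than RPE could be sampled. There was no group without AAV, and only P40 is treated here. By the methods of the study, the Best1-Nrf2 eye received a higher total dose of AAV than its fellow eye, and a further capsid type. Dose and capsid therefore cannot be told apart from Nrf2 in any comparison here.

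A dividing cell passes from G1, where D-type cyclins with Cdk4 or Cdk6 release the E2F factors from the retinoblastoma protein, through DNA replication by the loaded Mcm helicase, and into mitosis, which is driven by Cdk1 with the B-type cyclins. Genes of the last step are transcribed late in the cycle and are mostly silent in resting cells, whereas D-type cyclins and CDK inhibitors are also made by cells that do not divide. The mature RPE of mammals is largely postmitotic. Transcripts of mitosis in an eyecup can come from any dividing cell in it.

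*Nfe2l2*, the mouse counterpart of the delivered cDNA, was examined first. It had a lowest, median and highest level of 76.7, 83.0 and 134 CPM (counts relative to 1e6 of the scaled library total) in control eyes and of 275, 457 and 704 CPM in Best1-Nrf2 eyes. The groups did not overlap (edgeR quasi-likelihood test, log2 fold change 2.29, SE 0.21, Benjamini-Hochberg adjusted p = 6.21e-05), although reads of the human cDNA may be included. With the mean log2 level of the rod and cone markers as a covariate, even *Nfe2l2* was not past the threshold (log2 fold change 1.78, edgeR adjusted p = 0.159). Library totals were 18956748 to 44054836 counts in control and 32839893 to 49598700 in Best1-Nrf2 eyes (p = 0.148 by an exact permutation test of the signs within mice, two-sided; 5 of 9 mice had more counts with Best1-Nrf2). There were 5 libraries that stood apart on the first principal component, namely both eyes of mouse 3, the control eyes of mice 5 and 8 and the Best1-Nrf2 eye of mouse 6. In these 5 libraries the 10 most abundant genes took 18.3% to 22.1% of the counts, against 9.51% to 14.3% in the other 13. All 20 RPE markers were detected, with a summed level of 14410 to 72061 CPM in control and 18953 to 81395 CPM in Best1-Nrf2 eyes, and 6 of the 20 fell. The median of this sum was 44794 CPM over the control eyes but 24172 CPM over the treated ones, and it was higher with Best1-Nrf2 in 4 of 9 mice.

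Of the 43 genes, 42 passed the filter on low counts. *Cdkn2a*, which encodes the CDK inhibitor p16 and the p53 activator p19Arf, did not. Its largest count was 11 in Best1-Nrf2 eyes and 2 in control eyes, and it had no count in 8 of the 18 libraries, most of them control eyes. Of the 42 genes tested, 2 fell in Best1-Nrf2 eyes at an adjusted p under 0.05, *Bub1b* and *Cdk1*, and none rose. Over all 18958 genes tested, 1.13% fell and 3.12% rose. At an unadjusted p under 0.05 the numbers were again 2 lower and 0 higher, against 5.29% and 7.55% of all genes. DESeq2 and limma voom each called the same 2 counts (2 lower, 0 higher), where they called 2.84% and 2.65% of all genes lower and 4.96% and 4.87% higher. In bulk RNA, fewer cells of a type and less RNA per cell cannot be told apart.

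The estimates were mostly below 0. The log2 fold change was below 0 for 36 of the 42 genes (85.7%), against 53.0% of all genes tested, and its median was -0.41, against -0.03 for all genes. The median was -0.17 without mouse 4 and -0.18 without mouse 6. By role, the median was -0.05 for the 9 G1 genes, -0.18 for the 10 genes of licensing and the replication fork, and -0.19 for the 3 genes of nucleotide supply. It was -0.84 for the 9 genes of S, G2 and M phase and -0.90 for the 9 spindle, checkpoint and cytokinesis genes, and all 18 of these mitotic genes had an estimate below 0. It was -0.15 for the 2 CDK inhibitors tested. The errors were wide for most of them: the 95% interval reached a 2-fold lower level for 26 of the 42 genes and a 2-fold higher level for 4, and it lay within 2-fold in both directions for 16 genes, none of them mitotic.

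**Figure D1:**
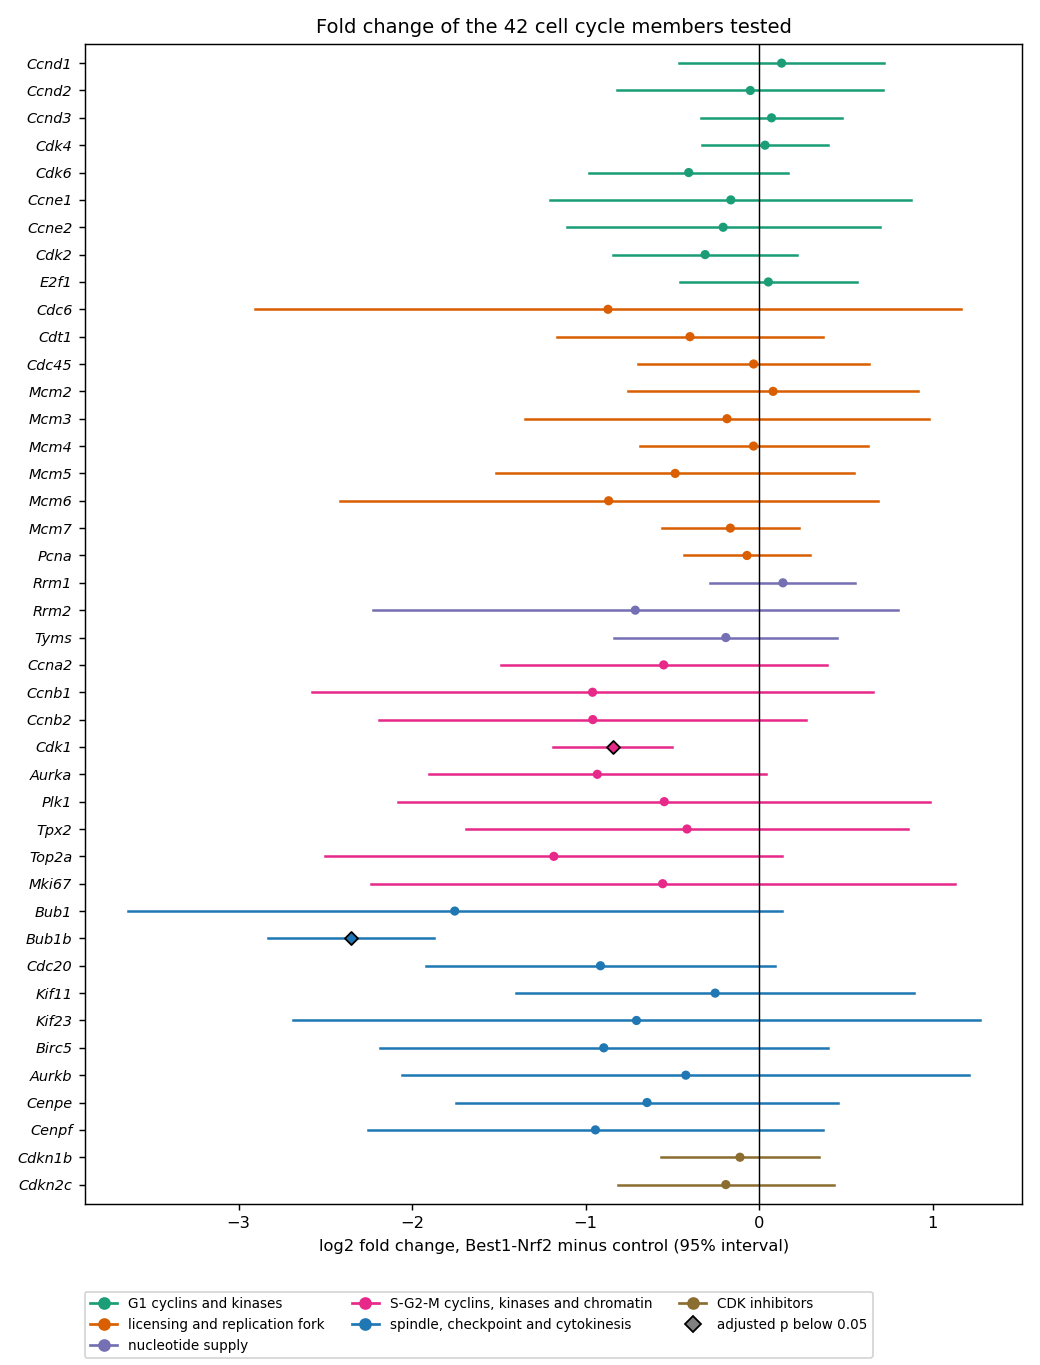
Log2 fold change (Best1-Nrf2 minus control, x axis) of the 42 cell cycle genes tested, with 95% intervals from the paired edgeR model. Points are coloured by role, and the diamonds are *Bub1b* and *Cdk1*, the 2 genes with an adjusted p under 0.05. All 18 mitotic genes lie left of 0, with intervals that for 16 of them cross it.

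*Bub1b* had the largest difference of the 42 genes. It encodes BubR1, a kinase-like protein of the spindle assembly checkpoint that holds back the anaphase-promoting complex until chromosomes are attached. It lies on GRCm38 chr2:118598211-118641591, plus strand (ENSMUSG00000040084, protein coding). Its level was 6.84, 19.9 and 49.2 CPM (lowest, median and highest) in the 9 control eyes and 1.73, 4.37 and 8.78 CPM in the 9 Best1-Nrf2 eyes. The groups overlapped by a few eyes only, as 7 Best1-Nrf2 eyes were below the lowest control eye and 8 control eyes were above the highest Best1-Nrf2 eye. The log2 fold change was -2.35 (SE 0.22, edgeR adjusted p = 7.08e-05), which is 5.10-fold lower. Within mice, *Bub1b* was lower with Best1-Nrf2 in 9 of 9, by a log2 difference of -3.02 to -1.44. Over all genes tested, 1.22% were lower in 9 of 9 mice. None of its 31-base words occurs in another annotated gene. Leaving out each mouse in turn gave -2.46 to -2.25, and with mice 3, 5, 6 and 8 left out, which hold the libraries that stood apart, it was -2.42 (edgeR adjusted p = 0.00294). With the mean log2 level of the rod and cone markers as a covariate the estimate was -2.41, but it did not pass (edgeR adjusted p = 0.129).

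*Cdk1*, the kinase that drives entry into mitosis, changed less but as regularly (ENSMUSG00000019942, GRCm38 chr10:69335146-69352938, minus strand, protein coding). Its level was 18.7, 25.2 and 35.3 CPM in control eyes and 11, 15.7 and 21.4 CPM in Best1-Nrf2 eyes. Of the Best1-Nrf2 eyes, 8 were below the lowest control eye, and that of mouse 3, at 21.4 CPM, was above 2 control eyes. The log2 fold change was -0.84 (SE 0.16, edgeR adjusted p = 0.00815), or 1.80-fold lower, and it was negative in 9 of 9 mice, from -1.59 to -0.20. It was -0.93 with mice 3, 5, 6 and 8 left out (edgeR adjusted p = 0.0822), which was not past the threshold with the 5 mice left, where 0.671% of all genes fell. Nor did it pass with the rod and cone covariate (-0.59, edgeR adjusted p = 0.420) or the corresponding macrophage covariate (-0.59, edgeR adjusted p = 1.0).

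The sequences before the start sites of *Bub1b* and *Cdk1* are shown because they are the genes that changed, and that of *Top2a* because it had the largest difference of the other genes of S, G2 and M phase. Each is the 250 bases before the start in RefSeq on GRCm38.p6, written 5′ to 3′ on the strand of the gene. Capitals mark a word of the cell cycle genes homology region (CHR) and the CCAAT box, on either strand. The CHR words were TTTGAA, read as TTCAAA from the other strand, as well as the palindrome TTCGAA. From the other strand, the CCAAT box reads as ATTGG. The CHR is the element through which late cell cycle genes are bound by the DREAM and MuvB complexes, and CCAAT is bound by NF-Y. The regions are chr2:118597961-118598210 (plus strand), chr10:69352913-69353162 (minus strand) and chr11:99024190-99024439 (minus strand).
Bub1b: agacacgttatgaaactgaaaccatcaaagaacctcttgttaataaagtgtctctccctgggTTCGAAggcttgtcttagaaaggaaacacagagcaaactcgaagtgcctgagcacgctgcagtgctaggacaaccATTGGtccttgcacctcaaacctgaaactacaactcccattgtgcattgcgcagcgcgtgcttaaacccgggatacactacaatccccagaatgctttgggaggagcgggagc
Cdk1: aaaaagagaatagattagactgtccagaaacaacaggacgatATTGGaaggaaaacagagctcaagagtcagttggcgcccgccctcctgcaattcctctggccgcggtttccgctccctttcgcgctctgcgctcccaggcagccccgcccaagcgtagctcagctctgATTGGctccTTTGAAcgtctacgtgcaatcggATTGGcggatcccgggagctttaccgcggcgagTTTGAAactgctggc
Top2a: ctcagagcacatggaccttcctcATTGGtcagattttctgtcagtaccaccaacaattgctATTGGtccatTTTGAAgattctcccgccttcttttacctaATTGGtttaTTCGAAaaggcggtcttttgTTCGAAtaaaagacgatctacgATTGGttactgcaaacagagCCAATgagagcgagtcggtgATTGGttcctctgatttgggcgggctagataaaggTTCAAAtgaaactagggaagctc

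*Bub1b* had a CHR word 188 bases and a CCAAT word 113 bases before the start, and a further CHR word after the start, outside the stretch shown. *Cdk1* had CHR words 71 and 15 bases before it and 3 CCAAT words. *Top2a* had 4 CHR words and 6 CCAAT words. RefSeq promoters, from 250 bases before to 50 after the start, were matched for 36 of the 43 genes. A CHR word on either strand was in 6 of 7 genes of S, G2 and M phase and in 6 of 8 spindle, checkpoint and cytokinesis genes, in 3 of 9 genes of licensing and the fork and in 0 of 6 G1 genes, against 21.7% of 27025 genes in all. CCAAT was in 7 of 7 and 7 of 8 of the mitotic genes, against 41.1% of all genes. The E2F words searched were TTCCCGC, along with TTGGCGC, the related TTGCCGC, and as the last of them TTCGCGC. At least 1 of them was in 6 of 9 genes of licensing and the fork and in 14 of the 36, against 10.9% of all genes. An E2F word that starts TTGG overlaps ATTGG where an A stands before it. The antioxidant response element, TGACNNNGC, to which Nrf2 binds, was in 10 of the 36, against 14% of all genes, and neither *Bub1b* nor *Cdk1* was among these. Both words were found in mitotic genes that passed the test and in others that did not, and a word is no proof of a site.

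The other 16 mitotic genes did not pass (edgeR adjusted p from 0.418 to 0.928), and each was lower with Best1-Nrf2 in 4 to 7 of the mice. *Mki67*, which encodes the proliferation marker Ki-67, had 2.55, 9.51 and 39.7 CPM in control eyes and 0.261, 8.25 and 19.1 CPM in Best1-Nrf2 eyes. The ranges overlapped widely, and the gene was lower in 5 of 9 mice and higher in the other 4. The log2 fold change was -0.56 (95% interval -2.24 to 1.13, SE 0.77, edgeR adjusted p = 0.873), and leaving out each mouse in turn moved it from -0.92 without mouse 9 and -0.90 without mouse 1 to -0.17 without mouse 4 and -0.11 without mouse 6. It was -4.59 with the mean log2 level of the rod and cone markers as a covariate, which did not pass either (edgeR adjusted p = 0.180). A change of *Mki67* of 2-fold either way was within this interval.

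*Top2a*, the topoisomerase that untangles sister chromatids, had 2.67, 11.9 and 202 CPM in control eyes and 1.39, 8.06 and 18.8 CPM in Best1-Nrf2 eyes. The control eye of mouse 8 was far above all the others. The log2 fold change was -1.18 (SE 0.60, edgeR adjusted p = 0.461) with all mice and -0.87 without mouse 8. It was -1.95 without the block for mouse, and with a marker covariate (rods and cones, or macrophages) it was -3.54 or -0.03, none of them past the threshold (edgeR adjusted p from 0.190 to 1.0). *Cdc20*, which activates the anaphase-promoting complex and is held in check by BubR1, had 4.84, 13.2 and 19.5 CPM in control eyes and 1.60, 5.22 and 19.3 CPM in Best1-Nrf2 eyes. Its log2 fold change was -0.91 (SE 0.46, edgeR adjusted p = 0.455), but it was lower in only 5 of 9 mice, and 26.7% of its 31-base words occur in other annotated genes. Such sharing was over 10% for 11 of the 42 genes, 4 of them mitotic, so that their counts may hold reads of other genes.

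**Figure D2:**
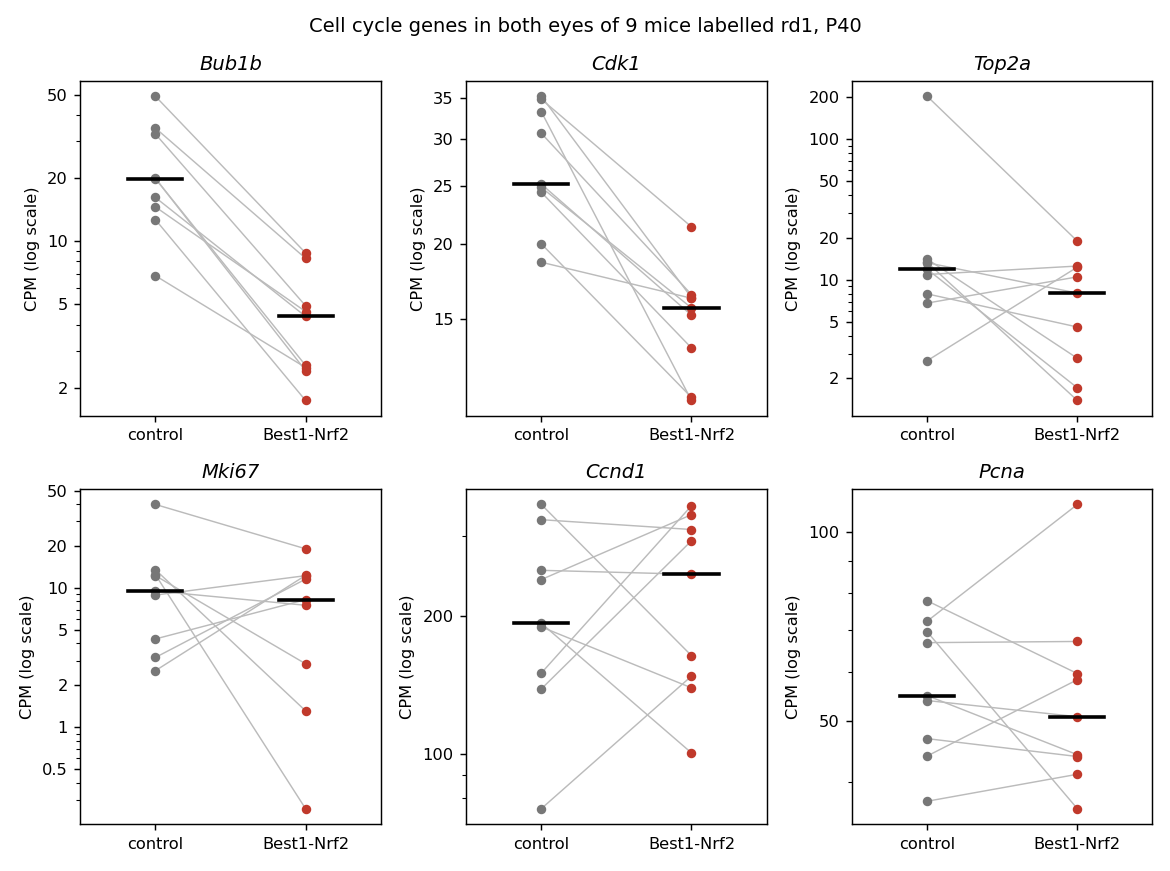
Level of 6 cell cycle genes in each eye (y axis, CPM on a log scale), with a line joining the eyes of a mouse and a bar at the median of 9 eyes. *Bub1b* and *Cdk1* fall in all 9 mice, whereas the lines of *Top2a*, *Mki67*, *Ccnd1* and *Pcna* run in both directions.

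Relative to exon length, the levels were low for most mitotic genes. On the TPM scale (counts per exon base, brought to the same sum in each library), the median control level was 16 for *Cdc20*, 14.3 for *Bub1b*, 12.6 for *Cdk1* and 9.15 for the B-type cyclin *Ccnb2*, but 2.28 for *Mki67* and 0.721 for *Bub1*, the checkpoint kinase related to *Bub1b*. In Best1-Nrf2 eyes the medians were 8.28 TPM for *Cdc20*, 2.54 for *Bub1b* and 6.60 for *Cdk1*. The G1 genes ranged more widely. The median level was 110 TPM in control and 96.8 TPM in Best1-Nrf2 eyes for *Ccnd1* and 72.5 and 82.8 TPM for *Cdk4*, but only 3.71 and 2.77 TPM for the E-type cyclin *Ccne1* and 2.32 and 2.38 TPM for *Cdk6*. TPM values had no TMM scaling, and by CPM the medians of *Ccnd1*, *Cdk4* and *Cdk6* differed between the groups in the opposite direction.

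The difference between the eyes in mitotic genes varied from mouse to mouse. The 18 genes summed to 104, 152 and 459 CPM (lowest, median and highest) in control eyes and to 26.3, 87.8 and 192 CPM in Best1-Nrf2 eyes. Their median log2 difference between the eyes of a mouse was below 0 in 6 mice and above 0 in 3. It was -3.36 in mouse 4, -3.01 in mouse 6 and -1.83 in mouse 7, and in each of these 3 mice all 18 genes were lower in the Best1-Nrf2 eye. It was 1.13 in mouse 1, 0.69 in mouse 9 and 0.34 in mouse 5, where 15, 14 and 15 of the 18 genes were higher. In mice 2, 3 and 8 it was -1.09, -0.46 and -0.41. The median over all genes was between -0.07 and 0.07 in every mouse, as the TMM scaling brings it close to 0. *Bub1b* and *Cdk1* were lower also in mice 1, 5 and 9, where most of the other mitotic genes were higher.

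**Figure D3:**
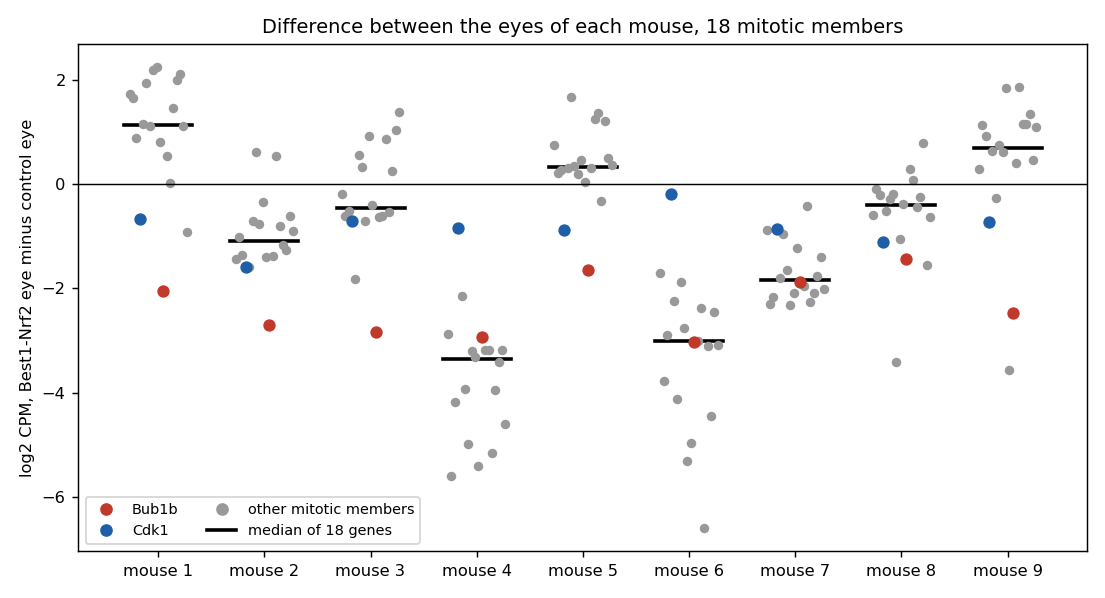
Difference in log2 CPM between the Best1-Nrf2 and the control eye (y axis) of each of the 18 mitotic genes in the 9 mice, with the median of the 18 as a bar. The medians run from -3.36 in mouse 4 to 1.13 in mouse 1, whereas *Bub1b* and *Cdk1* are below 0 in every mouse.

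A few eyes held most of the extreme values. The control eye of mouse 8, one of those that stood apart, had the highest of 18 levels for 13 of the 42 genes, and the control eye of mouse 4 for 12. The Best1-Nrf2 eye of mouse 6, which also stood apart, had the lowest level for 17 genes, and that of mouse 4 for 11. The eyes of mouse 4 were not among the 5 libraries apart.

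The G1 cyclins and kinases showed no call and small estimates, from -0.41 to 0.13. *Ccnd1*, the D-type cyclin of highest level per length, had 75.8, 193 and 352 CPM in control eyes and 100.4, 247 and 349 CPM in Best1-Nrf2 eyes, with a log2 fold change of 0.13 (SE 0.27, edgeR adjusted p = 0.929). *Ccnd2* had 85.8, 186 and 1893 CPM in control eyes and 115, 182 and 1061 CPM in Best1-Nrf2 eyes, with a log2 fold change of -0.05 (SE 0.35, edgeR adjusted p = 0.981). The medians of both groups were thus alike for *Ccnd2*, and its highest values were in the control eye of mouse 8 and the Best1-Nrf2 eye of mouse 3. The sign of *Ccnd1* and *Ccnd2* changed when single mice were left out.

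Genes of DNA replication and of nucleotide supply did not pass either. *Pcna*, the sliding clamp of the DNA polymerases, had 37.3, 54.9 and 77.8 CPM in control eyes and 36.3, 50.9 and 111 CPM in Best1-Nrf2 eyes, with a log2 fold change of -0.07 (95% interval -0.43 to 0.29, SE 0.17, edgeR adjusted p = 0.939). *Mcm7*, a subunit of the replicative helicase, had 14.9, 21.1 and 29.8 CPM in control and 15.2, 18.8 and 23.9 CPM in Best1-Nrf2 eyes, with a log2 fold change of -0.17 (SE 0.18, edgeR adjusted p = 0.823). For these genes the groups overlapped almost fully and the intervals left out a 2-fold change. *Rrm1*, the large subunit of ribonucleotide reductase, had 11.4, 20.7 and 29.4 CPM in control and 11.7, 24.5 and 31.7 CPM in Best1-Nrf2 eyes (log2 fold change 0.14, SE 0.19, edgeR adjusted p = 0.875). *Tyms*, the thymidylate synthase, had 8.90, 17 and 28 CPM in control and 6.61, 11.1 and 51.3 CPM in Best1-Nrf2 eyes (log2 fold change -0.19, SE 0.29, edgeR adjusted p = 0.891). The direction thus differed between these enzymes, in neither case beyond the spread.

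Of the CDK inhibitors, *Cdkn1b*, which encodes p27, had 20.6, 24.1 and 61.3 CPM in control and 17.7, 23.9 and 51.5 CPM in Best1-Nrf2 eyes (log2 fold change -0.11, SE 0.21, edgeR adjusted p = 0.919). *Cdkn2c*, which encodes p18, had 4.66, 13 and 19.5 CPM in control and 6.87, 8.97 and 24.7 CPM in Best1-Nrf2 eyes (log2 fold change -0.19, SE 0.29, edgeR adjusted p = 0.885). Neither differed beyond the spread between mice.

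The other 119 cell cycle genes, which were all tested, gave 7 genes that rose and 0 that fell with edgeR, against 3.12% and 1.13% of all genes tested. At an unadjusted p under 0.05, 9 were higher and 6 lower, where the shares over all genes were 7.55% and 5.29%. DESeq2 and voom each called 1 lower. The estimate was below 0 for 94 of the 119, with a median of -0.23. Of the 58 genes of G2 and mitosis, 53 had an estimate below 0 (median -0.44), and the one that passed was higher. Of 11 further CDK inhibitors and growth arrest genes, 5 rose and none fell, with a median of 0.42.

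*Cdkn2b*, which encodes the Cdk4 and Cdk6 inhibitor p15, had the largest rise of the 119. It went from 7.44, 29.2 and 74.0 CPM in control eyes to 28.1, 94.7 and 135 CPM in Best1-Nrf2 eyes (log2 fold change 1.83, SE 0.28, edgeR adjusted p = 0.00245, higher in 9 of 9 mice, as were 3.12% of all genes). *Cdkn1a*, which encodes p21, an inhibitor of several CDKs and a target of p53, had 29.5, 99.6 and 263 CPM in control and 119, 215 and 546 CPM in Best1-Nrf2 eyes (log2 fold change 1.23, SE 0.22, edgeR adjusted p = 0.00698, higher in 9 of 9 mice). Without the block for mouse, *Cdkn1a* did not pass (edgeR adjusted p = 0.138). By CPM, both inhibitors were thus higher in every treated eye than in its fellow eye, although the groups overlapped. By TPM, *Cdkn1a* was lower with Best1-Nrf2 in mouse 3 (47.2 against 54.8) and *Cdkn2b* in mouse 6 (48.5 against 65.5).

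*E2f6*, a repressor of the E2F family, had 32.7, 62.2 and 95.9 CPM in control and 84.9, 199 and 258 CPM in Best1-Nrf2 eyes (log2 fold change 1.32, SE 0.19, edgeR adjusted p = 0.00136, higher in 9 of 9 mice by CPM). By TPM it was lower with Best1-Nrf2 in mouse 6 (29.4 against 33.6). *Melk*, a kinase gene whose transcript is usually high in dividing cells, went the other way from *Bub1b* and *Cdk1*. It had 1.78, 10.2 and 14.3 CPM in control and 5.89, 26.5 and 43.3 CPM in Best1-Nrf2 eyes (log2 fold change 1.57, SE 0.33, edgeR adjusted p = 0.0180). It was higher in 8 of 9 mice, and without mouse 7 it did not pass (edgeR adjusted p = 0.0545).

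The remaining 3 of the 7 are named after their values were seen. They were the stress-response genes *Gadd45g* (log2 fold change 1.15, SE 0.19, edgeR adjusted p = 0.00423) and *Gadd45b* (0.85, SE 0.19, edgeR adjusted p = 0.0224), and *Cdkn1c*, which encodes the CDK inhibitor p57 (0.84, SE 0.21, edgeR adjusted p = 0.0416). All were higher in 9 of 9 mice by CPM. By TPM, *Gadd45b* (12.9 against 19.2) and *Cdkn1c* (48.1 against 49.0) were lower with Best1-Nrf2 in mouse 6. *Gadd45b* was not past the threshold without mouse 3, 4 or 9 (edgeR adjusted p from 0.0509 to 0.0691), nor *Cdkn1c* without mouse 2, 3, 4, 5, 7 or 9 (edgeR adjusted p from 0.0525 to 0.104) or without the count filter (edgeR adjusted p = 0.0559). Without the block for mouse, *Gadd45b* (edgeR adjusted p = 0.247) and *Cdkn1c* (edgeR adjusted p = 0.0739) did not pass. With mice 3, 5, 6 and 8 left out, none of the 3 did (edgeR adjusted p from 0.0946 to 0.240). For *Cdkn1c*, 27.2% of the 31-base words occur in other annotated genes and an antisense gene overlaps its exons, so its count is uncertain.

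**Figure D4:**
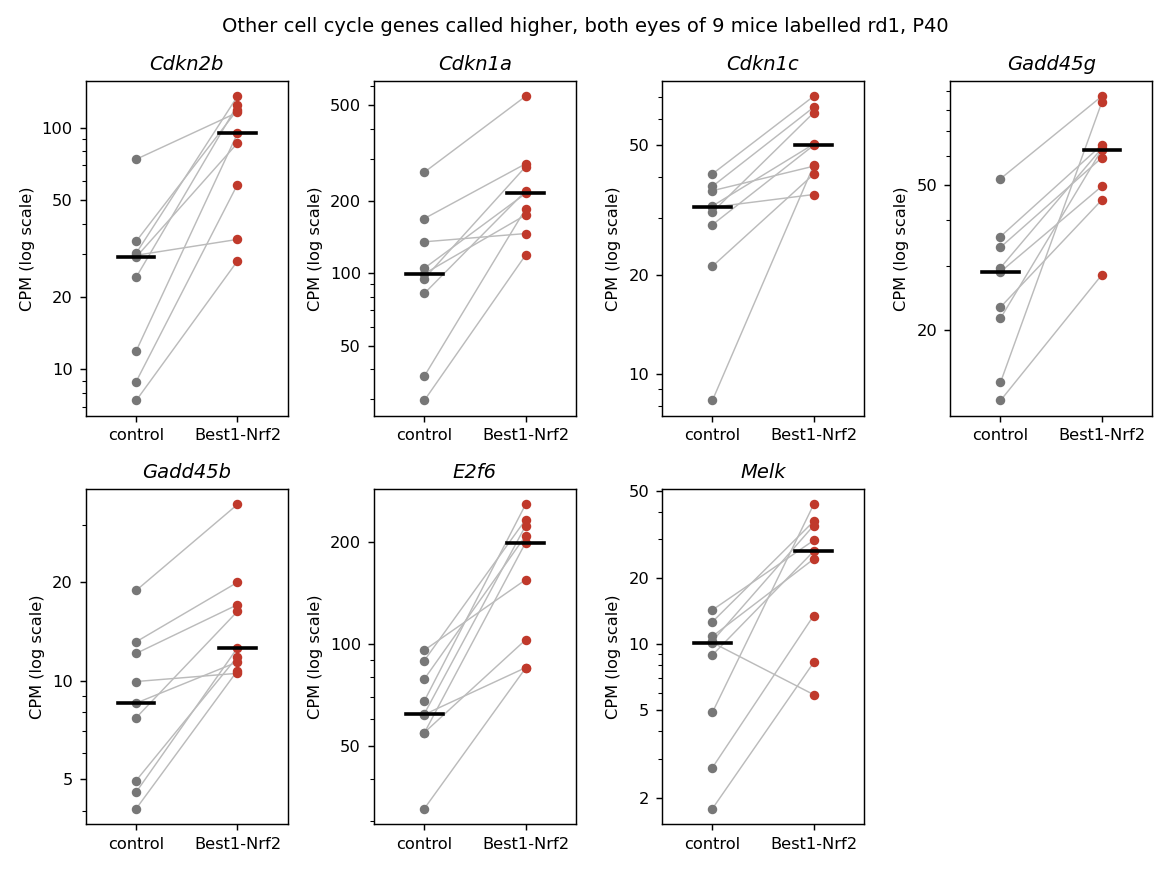
Level of the 7 other cell cycle genes that rose, in each eye (y axis, CPM on a log scale), with a line joining the eyes of a mouse and a bar at the median of 9 eyes. All 7 are higher with Best1-Nrf2 in all 9 mice, except *Melk*, which is higher in 8.

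Markers of some other cells differed between the groups. Of 20 macrophage and microglia markers, 11 rose and none fell; their sum was 161 to 511 CPM in control and 185 to 742 CPM in Best1-Nrf2 eyes and was higher with Best1-Nrf2 in 7 of 9 mice. All 11 cone markers fell, with sums of 298 to 2170 CPM in control and 40.4 to 334 CPM in Best1-Nrf2 eyes. Of 13 rod markers, 1 rose and 3 fell (sums of 135 to 591 CPM and 281 to 611 CPM). Of 11 fibroblast markers 1 rose (207 to 679 CPM and 417 to 779 CPM), and of 10 glial markers 1 fell (4080 to 14522 CPM and 5607 to 10213 CPM). The median of the glial sum was 11150 CPM over the control eyes but 6710 CPM over the treated ones, and it was higher with Best1-Nrf2 in 1 of 9 mice. The glial and RPE lists share *Rlbp1*, so their sums are not independent, and the part of this gene in the glial difference was not tested. No endothelial (92.3 to 205 CPM and 39.7 to 326 CPM) or lymphocyte marker (4.50 to 15.1 CPM and 3.07 to 11.7 CPM) was called, nor was any of melanocytes and Schwann cells or of red blood cells. No marker was at 0 in all libraries.

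Of the 3 mice in which the median mitotic gene was higher with Best1-Nrf2, the macrophage sum was higher too in mouse 5 (485 against 282 CPM) and mouse 9 (599 against 382 CPM) and lower in mouse 1 (310 against 511 CPM). Of the 6 mice in which it was lower, the sum was lower too in mouse 4 (185 against 268 CPM) and higher in the other 5, from 273 against 234 CPM in mouse 6 to 742 against 161 CPM in mouse 8. The part of these cells in the mitotic differences was not tested mouse by mouse. With the mean log2 level of the macrophage markers as a covariate, *Bub1b* still passed (log2 fold change -2.96, edgeR adjusted p = 0.0267), unlike with that of the rod and cone markers, and *Cdk1* passed with neither. With these covariates, 0.211% and 0.137% of all genes were called, against 4.25% without, and none of the 7 other genes was. Their estimates moved unequally. With the rod and cone covariate the log2 fold change was 0.29 for *Cdkn2b*, 0.19 for *Melk* and 0.23 for *Gadd45b*, but 0.98 for *E2f6*, 0.99 for *Cdkn1a*, 1.32 for *Cdkn1c* and 1.58 for *Gadd45g* (edgeR adjusted p from 0.181 to 0.910). With the macrophage covariate it was 0.12 for *Cdkn1c* and from 0.92 for *Gadd45b* to 2.44 for *Cdkn2b* for the other 6 (edgeR adjusted p from 0.186 to 1.0 over the 7).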

How the data were processed

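RNA sequencing of eyecup RNA from both eyes of 9 mice labelled *rd1* at P40 was analysed (18 libraries). The study's methods describe fewer *rd1* pairs and also wild-type pairs at P40; groups followed the labels. Per the labels, a low-input kit was used to amplify the poly(A) RNA, and there were 2 sequencing runs whose libraries are not told apart; no molecular identifiers are described, so reads were not independent molecules. The values deposited are expected counts for each Ensembl gene, which the authors rounded to whole numbers and did not scale. This unit was inferred from near-identical genes that share values. The authors used mm10 with STAR and featureCounts, and Salmon (0.8.1 per the submitters' processing notes) with tximport; which of them made the table is not given in the sources used here. Symbols were found for 47224 of 47729 gene IDs, 11819 had no count, and 18958 were tested (99.9% of counts).

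In R 4.3.3, low genes were removed with filterByExpr and TMM scaling was used. The edgeR 4.0.16 quasi-likelihood test had mouse as a block, with Benjamini-Hochberg adjustment over all genes and a threshold of 0.05. The labels give both eyes of a mouse the same number; deviations from the group means correlated between these eyes by -0.37 to 0.64 (median -0.00095). Log2 CPM used a prior count of 2. No pair of libraries within a group was a duplicate (72 pairs, chi-square per degree of freedom at least 49.5). Pairs across the groups were not examined in this way. Exon lengths, overlaps and shared 31-base words were from GENCODE release M21 (GRCm38), and promoters from RefSeq. Methods were tested on simulated data.

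The genes and lists were chosen with earlier results of these data known. Values were given for genes past the threshold, for up to 2 genes of highest level in each of 6 roles, for up to 4 other cell cycle genes in each direction, and for *Nfe2l2*, *Cdkn1a* and *Mki67*. The TPM levels of *Ccnb2*, *Bub1*, *Cdk4*, *Ccne1* and *Cdk6* were chosen after their values were seen. Alternatives were no block, RLE and upper-quartile scaling, DESeq2 1.42.0, voom of limma 3.58.1 with sample weights, no count filter, at least 10 counts in every library, a threshold of 0.1, marker covariates, and leaving out each mouse. Leaving out the 4 mice with a library that stood apart was chosen after seeing the data.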

Additional observations from a re-analysis of the deposited data

Results flagged for a closer look

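In 10 of 98 sets of 9 eyes, the highest or lowest log2 CPM was separated from the rest by more than Dixon's 95% critical value. Chance flags about 1 in 20 groups, or 4.9 of 98. Of the 10 values, 6 were in mouse 8, and 5 of these in its control eye, the smallest library and one that stood apart. There, *Ccnd2* was 10.89 (next value 8.07), *Top2a* 7.66 (next 3.82), *Ccne1* 5.46 (next 2.48) and *Ccne2* 5.50 (next 2.60), each the highest, and *Cdkn1c* was the lowest at 3.07 (next 4.42). In the Best1-Nrf2 eye of mouse 8, *Cdkn2c* was the highest at 4.63 (next 3.59). In the Best1-Nrf2 eye of mouse 6, *Cdk6* was the lowest at 1.00 (next 2.73), as was *Cdk2* at 3.61 (next 4.51). In the control eye of mouse 3, *Cdc45* was the lowest at 0.63 (next 1.32), as was *Mcm6* at 0.56 (next 2.99). What set these eyes apart was not tested.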

How the results depend on the processing

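No cell cycle gene of the 43 was called higher under any alternative tried, and 2 were called lower under each, except 0 with the rod and cone covariate, 1 with the macrophage covariate and 1 with the 5 mice left after mice 3, 5, 6 and 8. The median over the 42 genes was -0.23 with voom, -0.25 with at least 10 counts in every library, -0.85 with the macrophage covariate and -1.63 with the rod and cone covariate. Of the 119 other cell cycle genes, the 7 called higher became 4 without the replicate block, 0 with either covariate and 4 with 5 mice, and the 0 called lower became 1 with DESeq2 and 1 with voom. Without the block, 563 of all genes were called higher and 179 lower, and both *Bub1b* and *Cdk1* stayed lower. Of all genes, 592 called higher became 940 with DESeq2, 924 with voom, 26 with the rod and cone covariate, 37 with the macrophage covariate and 366 with 5 mice; 214 called lower became 538, 502, 0, 3 and 128. Leaving out 1 mouse gave 416 to 726 higher and 116 to 320 lower. The latter fell by more than 1.5 times on leaving out mouse 1 (116), 3 (128), 5 (129), 7 (124) or 9 (130). The cause of these shifts was not tested.

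Signs changed only for genes that were not called. The log2 fold change of *Ccnd2* was 0.16 with voom, 1.21 with the macrophage covariate, and 0.09, 0.01 and 0.20 without mouse 2, 5 and 8 (-0.26 to 0.20 over the mice left out). That of *Ccnd1* was -1.03 with the rod and cone covariate, -0.0068 with the macrophage covariate and -0.0092 without mouse 9 (-0.0092 to 0.28 over the mice left out). With the rod and cone covariate it was 0.39 for *Pcna*, -0.42 for *Rrm1* and 0.65 for *Cdkn1b*; with the macrophage covariate it was 0.11 for *Mcm7*; and without mouse 2 it was 0.037 for *Pcna* (-0.15 to 0.037 over the mice left out). For 16 of the 18 mitotic genes the 95% interval crossed 0, and whether count depth or the spread between mice set its width was not tested.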
